A study of Mus musculus with 42 samples.

Results

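The 7 genes followed here are 2 FoxO transcription factors, Foxo1 and Foxo3, and 5 genes known as their catabolic or stress targets: Fbxo32, Trim63, Bnip3, Sesn1 and Gadd45a. They were taken by gene name from the 27597 genes named on a mouse whole-genome array, and 12 probes carry their names. All 7 passed the filter for detectable probes and were tested in liver, quadriceps muscle and visceral fat. The mice were female C57BL/6, either wild type (Wt) or Akt1+/-, a heterozygous loss of Akt1. Each tissue was read at 8wk in 3 arrays per genotype and at 35wk in 4 arrays per genotype, which gave 12 groups and 42 arrays in all. The older age is the one on the labels, and the methods name a somewhat later age for the older mice. The labels do not tie the 3 tissues to individual mice, and the p-values measure only the spread between arrays of a group.

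FoxO factors sit at the end of the insulin pathway. When insulin or IGF-1 activates Akt, Akt phosphorylates FoxO, 14-3-3 proteins hold it in the cytoplasm, and its target genes are read less; when Akt is inactive, FoxO enters the nucleus. In skeletal muscle this switch is known for control of the ubiquitin ligases that break down contractile proteins and of autophagy genes, and in liver for control of glucose output. Most of the control of FoxO is on the protein, which an array of RNA does not read.

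Levels are log2 of the array signal after each array's 75th percentile was set to 0, so that a level of 3 lies 3 log2 units above that percentile. Levels are compared between arrays within a probe and never between probes. The 75th percentile signal ranged from 274.2 to 795.2 intensity units over the arrays, 56.52% to 68.64% of probes were well above background, and 0 probes were saturated. Akt1 itself was lower on every Akt1+/- array than on every Wt array of the same tissue and age, with both of its probes. The difference was -0.67 log2 in liver (SE 0.08, limma adjusted p = 0.00255), -0.55 in fat (SE 0.07, adjusted p = 0.00647) and -0.58 in muscle (SE 0.11, adjusted p = 0.0744). With the replicate number as a block, Akt1 in muscle passed (-0.58, limma adjusted p = 0.0222). The exact two-sided permutation p for Akt1 was 0.1 at 8wk and 0.0286 at 35wk in each tissue, the smallest that 3 against 3 and 4 against 4 arrays can give. This permutation treats all arrays as unpaired. The marker genes of each labelled tissue were high in that tissue. Age and scan day cannot be told apart, because all 8wk arrays were scanned on other days than the 35wk arrays, and at 35wk each group lay on a slide of its own.

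Of the members' promoters, the pair with a match to a FoxO-type element (Trim63 and Sesn1) and, for contrast, that of Bnip3 are shown next, each as the 300 bases from 250 before to 50 after the annotated start, from RefSeq on GRCm38.p6. Both strands were searched for the FoxO-type element GTAAACA (reverse complement TGTTTAC) and for the insulin response core CAAAACA (reverse complement TGTTTTG), which do not overlap in any match printed here. Capitals mark a match. The first element stands in 1199 of 32851 mouse promoters of this length (3.65%) and the second in 2064 (6.28%). Trim63 (chr4:134314870-134315169, + strand) held 1 match to the first element, on the minus strand at position -194. Sesn1 (chr10:41810324-41810623, + strand) held 1 match, on the minus strand at position 22, and its second annotated start (chr10:41887189-41887488) held 0. Bnip3 (chr7:138909457-138909756, - strand), the member called for both genotype and age in liver, held 0 matches. The windows of Foxo1, Foxo3 and Gadd45a also held 0, which says only that these letters are not in these windows. Fbxo32 was not searched.
Trim63: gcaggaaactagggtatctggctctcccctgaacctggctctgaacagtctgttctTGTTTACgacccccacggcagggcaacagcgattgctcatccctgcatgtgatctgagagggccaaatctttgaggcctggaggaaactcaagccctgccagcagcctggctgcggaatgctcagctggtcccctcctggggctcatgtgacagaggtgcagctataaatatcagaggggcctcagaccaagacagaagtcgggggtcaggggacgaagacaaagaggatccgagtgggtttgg
Sesn1: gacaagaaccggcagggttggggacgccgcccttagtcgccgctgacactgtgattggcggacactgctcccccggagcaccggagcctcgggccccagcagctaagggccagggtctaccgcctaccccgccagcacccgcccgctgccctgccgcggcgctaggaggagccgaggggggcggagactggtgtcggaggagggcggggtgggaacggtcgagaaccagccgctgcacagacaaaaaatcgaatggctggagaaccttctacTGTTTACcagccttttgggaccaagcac
Bnip3: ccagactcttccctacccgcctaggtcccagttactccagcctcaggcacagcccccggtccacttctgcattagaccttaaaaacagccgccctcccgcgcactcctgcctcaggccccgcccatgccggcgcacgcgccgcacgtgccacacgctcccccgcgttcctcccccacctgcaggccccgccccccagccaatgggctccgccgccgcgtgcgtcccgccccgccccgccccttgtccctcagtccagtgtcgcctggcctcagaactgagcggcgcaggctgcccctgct

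The largest differences of Trim63, Fbxo32, Gadd45a and Sesn1 were between tissues, while those of Foxo1 and Bnip3 between tissues were of the size of their differences by genotype or age. In Wt mice all 7 members were higher in quadriceps than in liver, against 43.2% of the 19861 genes tested that were higher there and 81.2% that differed in either direction. For Trim63, whose probe was not well above background in liver, that direction was fixed by the filter. The Foxo3 probe also passed the filter only through muscle and fat, so the direction of Foxo3 is not counted as a result. The ubiquitin ligase genes were at the top and Bnip3 at the bottom of that range, and the order from tissue to tissue was muscle, then fat, then liver for Fbxo32 and Sesn1.

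The muscle ubiquitin ligases were the most tissue-bound members. Trim63 encodes MuRF1, a ligase that marks contractile proteins for the proteasome, and the probe for its RefSeq transcript (A_52_P517224, chr4:133601186-133601245 on mm8) read from 8.35 to 9.12 over the 14 muscle arrays, with a median of 8.83. The same probe was well above background on 0 of 14 liver arrays, where it read -7.75 to -5.77. Muscle and liver therefore did not overlap (measured Wt means 8.84 and -6.87). With liver set to the lowest signal well above background on its arrays, Wt muscle stood 13.87 log2 (15000-fold) higher. This bound holds for this probe and scaling only and is no lower limit for the gene. This probe passed the filter only through muscle and fat, so no p is given for it. Its second probe, which matches a cDNA (A_51_P115335, chr4:133589380-133589439), gave 9.27 log2 (SE 0.39), and normexp and quantile normalisation gave 11.02 with the RefSeq probe, so the size of the Trim63 difference depends on probe and processing. Fbxo32, which encodes atrogin-1, the other classical atrophy ligase (probe A_51_P109369, chr15:58010280-58010339), read 7.32 to 8.29 in muscle, -1.86 to -0.59 in liver and -0.08 to 1.8 in fat, with medians of 8, -1.04 and 0.91. The 3 ranges of Fbxo32 did not overlap: in Wt mice muscle was above liver by 8.97 log2 (SE 0.19, 500-fold, adjusted p = 1.63e-29) and above fat by 7.21 (SE 0.19, 148-fold, adjusted p = 2.03e-26), with 8.10 and 6.57 log2 under normexp.

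Gadd45a, a growth arrest and DNA damage gene that also rises in denervated muscle, followed the ligases. Its probe (A_51_P296608, chr6:66964960-66965019) read 2.39 to 4.75 in muscle, -2.02 to 1.14 in liver and -0.88 to 0.05 in fat. Gadd45a in muscle thus stood above every array of the other tissues. In Wt mice it was higher by 4.63 log2 over liver (SE 0.33, 24.8-fold, limma adjusted p = 9.97e-15) and 4.15 over fat (SE 0.33, 17.8-fold, adjusted p = 2e-13). Fat and liver overlapped (0.48, 95% interval -0.19 to 1.15, adjusted p = 0.183). Sesn1, a stress gene whose product restrains mTORC1, read 5.2 to 6.66 in muscle, 3.34 to 4.82 in fat and 1.71 to 2.6 in liver with the probe used for it (A_51_P233954, chr10:41596609-41596668). Sesn1 ranges did not overlap between any pair of tissues, and in Wt mice muscle exceeded liver by 3.52 log2 (SE 0.18, 11.5-fold, adjusted p = 9.96e-19) and fat by 1.43 (SE 0.18, adjusted p = 9.09e-09). Its other probes gave 4.07 and 4.17 for muscle over liver. Over 6 alternative settings, muscle over fat for Sesn1 ran from 0.88 to 1.65 log2 and passed in each (highest limma adjusted p = 3.54e-05).

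The FoxO factors and Bnip3 differed less between tissues. Foxo1 (probe A_51_P138044, chr3:52434190-52434249) read 3.22 to 4.62 in muscle, 2.86 to 3.95 in fat and 1.85 to 3.4 in liver, and these ranges overlapped. In Wt mice Foxo1 was higher in muscle than in liver by 0.76 log2 (SE 0.22, 1.69-fold, adjusted p = 0.00281), and neither fat against liver (0.39, 95% interval -0.07 to 0.85) nor muscle against fat (0.37, interval -0.09 to 0.83) passed. Both depended on the processing: fat against liver passed with normexp and quantile normalisation (0.90, adjusted p = 0.000251), and muscle against fat passed with scaling to the median (0.59, adjusted p = 0.0208) and with the second Foxo1 probe (0.57, adjusted p = 0.0321) but was -0.06 with normexp. Foxo3 (A_52_P373852, chr10:41869156-41869215) was a dim probe, well above background on 14 muscle, 13 fat and 8 liver arrays. It read 2.06 log2 higher in Wt muscle than in Wt liver (SE 0.38). No liver group held 3 arrays well above background, so this probe passed the filter only through muscle and fat, and no p is given for it. The second Foxo3 probe (A_51_P145507, chr10:41874361-41874420) gave 0.95 (SE 0.37, adjusted p = 0.0179). Bnip3, a mitochondrial BH3 protein that triggers mitophagy, read 6.11 to 7.19 in muscle, 6.19 to 7.02 in fat and 5.35 to 6.71 in liver (A_51_P155234, chr7:138729737-138729796); this probe lists other transcripts besides Bnip3, so near-identical copies may share its signal. Bnip3 was 0.33 log2 higher in Wt muscle than in Wt liver (SE 0.11, adjusted p = 0.00866) and 0.49 higher in fat than in liver (SE 0.11, adjusted p = 0.000248). The fat value for Bnip3 ran from 0.24 with scaling to the median, where the call was lost (adjusted p = 0.0634), to 1.5 with normexp.

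**Figure D1:**
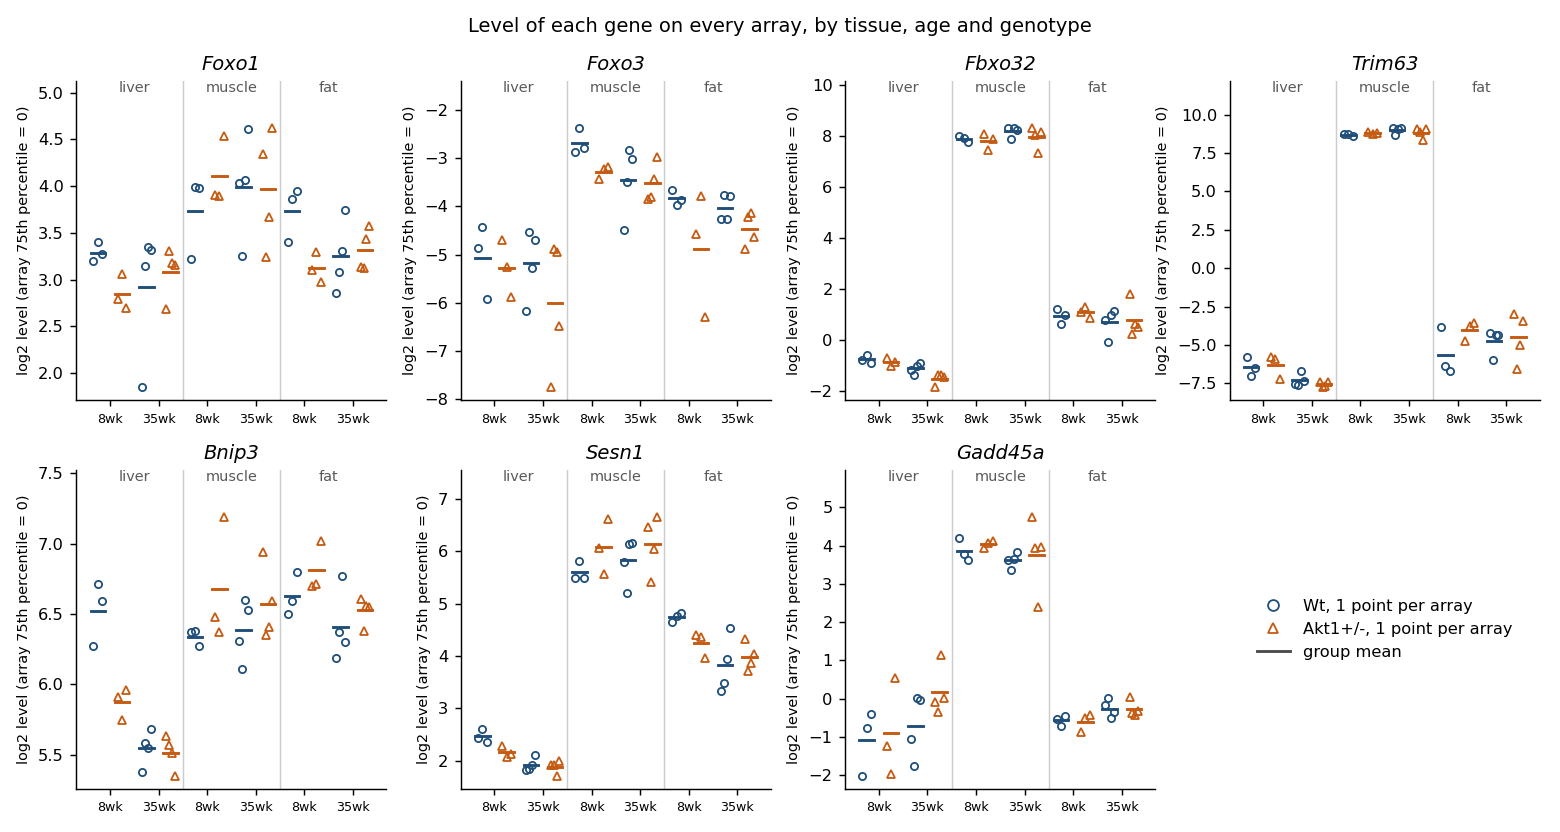
Level of each of the 7 genes on all 42 arrays, as log2 signal with the 75th percentile of each array at 0 (vertical axis, a scale of its own for each gene), by tissue and age; circles are Wt arrays, triangles Akt1+/- arrays and bars group means. Fbxo32, Sesn1 and Gadd45a in muscle stand clear of liver and fat, Trim63 in muscle lies between 8.35 and 9.12, and Bnip3 in liver is highest on the Wt 8wk arrays.

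The fit called 5 members higher in fat than in liver, against 40.1% of all genes higher and 80.1% called in either direction. These were Bnip3, Fbxo32, Foxo3, Sesn1 and Trim63, of which Trim63 rests on a probe well above background on 0 of 14 liver arrays and is not read as a difference. The Foxo3 probe passed the filter only through fat and muscle, so the Foxo3 call is not read as a difference either. Muscle was above fat for 5 members (Fbxo32, Foxo3, Gadd45a, Sesn1 and Trim63), against 40.7% of genes higher and 82.2% called in either direction. Fbxo32 was 1.75 log2 higher in Wt fat than in Wt liver (SE 0.19, 3.37-fold, adjusted p = 3.91e-10) and Sesn1 2.09 higher (SE 0.18, 4.27-fold, adjusted p = 1.45e-12). For Trim63 the fat against liver value turned with the probe, 1.70 with A_52_P517224, for which the bound of -0.14 leaves no fold, and -0.89 with A_51_P115335 (adjusted p = 0.0357). Foxo3 turned as well, from 1.20 (SE 0.38) to -0.39 (adjusted p = 0.325). Muscle over fat for Foxo3 (0.86, SE 0.38, limma adjusted p = 0.0352) was lost with slide as a random block (0.87, adjusted p = 0.0538). Markers of skeletal muscle were present in the fat samples: the summed linear level of 7 of 7 markers was 15.6 to 100.5 in fat, 4257 to 5733 in muscle and 0.258 to 0.554 in liver. In fat it came mainly from Acta1, with a mean log2 level of 5.36, while Myh4 (-3.67) and Ckm (-5.81) were low. The part of these markers in the fat levels of Fbxo32 and Trim63 was not tested, and in whole tissue fewer cells of a type and less RNA per cell cannot be told apart.

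The first question the design asks is whether losing a copy of Akt1 moves these genes. Bnip3 in liver was the only member called for genotype with both ages averaged, and none was called in muscle or fat. The background was 6.26% of 17561 genes called in liver, 0% of 17138 in muscle (3162 genes, and no member, had an unadjusted p under 0.05) and 0.822% of 18366 in fat. At 8wk alone Bnip3 in liver was again the only member called, against 2.12% of genes in liver, 0% in muscle (2704 at an unadjusted p under 0.05) and 1.84% in fat. At 35wk alone no member was called, against 3.55%, 0.0992% and 1.72% of genes.

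Bnip3 in liver read 6.27, 6.71 and 6.59 on the Wt 8wk arrays and 5.91, 5.75 and 5.96 on the Akt1+/- 8wk arrays. At 35wk it read 5.38, 5.58, 5.55 and 5.68 in Wt and 5.63, 5.57, 5.51 and 5.35 in Akt1+/- liver. The 8wk genotypes did not overlap, and the 35wk genotypes did. Akt1+/- was lower than Wt by 0.65 log2 at 8wk (-0.65, SE 0.13, 1.57-fold, limma adjusted p = 0.0291), by 0.03 at 35wk (-0.03, 95% interval -0.28 to 0.21) and by 0.34 over both ages (-0.34, SE 0.09, adjusted p = 0.0372). The change of the Bnip3 genotype difference with age was 0.61 (SE 0.17, unadjusted p = 0.00338) and did not pass after adjustment (adjusted p = 0.134), and no member passed that test in liver (0.558% of genes), muscle (0%, with 1436 genes at an unadjusted p under 0.05) or fat (1.64%). The call over both ages was lost when any of 10 of the 14 liver arrays was left out (adjusted p 0.0273 to 0.0963), and held without Wt 8wk replicate 1, Akt1+/- 8wk replicate 1, Wt 35wk replicate 1 or Akt1+/- 35wk replicate 2. The 8wk call was lost without Wt replicate 2 or 3 or Akt1+/- replicate 2 or 3 at 8wk (0.0194 to 0.111 over all 14). It was also lost without the filter on dim probes (adjusted p = 0.0674), with the replicate block (0.056) and with the slide block (0.0594), and the call over both ages was lost under these 3 (0.0787, 0.0599 and 0.0787) and with normexp (-0.23, adjusted p = 0.0708). The 8wk liver groups also differed in other markers: the summed level of 7 of 7 hepatocyte markers was 3156 to 3470.0 in Wt and 2621 to 2877 in Akt1+/- liver, of 3 of 3 macrophage markers 8.42 to 11.9 and 12.3 to 16.4, and of 3 of 3 lymphocyte markers 1.4 to 1.68 and 2 to 2.29. Their part in the Bnip3 value was not tested. The 8wk Wt liver arrays shared a slide and the Akt1+/- arrays lay on other slides, so no within-slide value exists in liver.

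The FoxO genes themselves were not called for genotype in any tissue. Foxo1 in 8wk fat read 3.4, 3.86 and 3.95 in Wt and 3.1, 3.3 and 2.98 in Akt1+/- mice. These did not overlap with either probe, yet the difference of -0.61 (SE 0.22, 95% interval -1.09 to -0.13) did not pass (adjusted p = 0.126). In 8wk liver Foxo1 also did not overlap, at 3.2, 3.4 and 3.27 in Wt and 2.79, 3.06 and 2.7 in Akt1+/- mice (-0.44, interval -1.14 to 0.26). At 35wk Foxo1 overlapped in each tissue, with differences of 0.17 in liver, -0.02 in muscle and 0.06 in fat. Leaving out 1 array gave -0.19 to 0.31 in liver, -0.27 to 0.22 in muscle and -0.07 to 0.23 in fat, so no sign was stable. Foxo3 in 8wk muscle read -2.86, -2.37 and -2.78 in Wt and -3.43, -3.22 and -3.17 in Akt1+/- mice with its brighter probe, without overlap (-0.61, SE 0.36, adjusted p = 0.429), whereas its second probe overlapped. The slide that held arrays of both genotypes in 8wk muscle (3 Wt, 1 Akt1+/-) gave -0.77 for Foxo3, and the one in 8wk fat (1 Wt, 3 Akt1+/-) gave -0.82 for Foxo1.

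None of the targets passed for genotype in muscle, and their intervals give the sizes that the arrays allow. Trim63 differed by -0.02 log2 (95% interval -0.26 to 0.23) over both ages and Fbxo32 by -0.15 (interval -0.48 to 0.18). With the RefSeq probe Trim63 at 8wk read 8.84, 8.76 and 8.81 in Akt1+/- muscle, just above the Wt values of 8.73, 8.73 and 8.59, and did not pass (0.12, interval -0.26 to 0.49). Sesn1 gave 0.40 (interval -0.09 to 0.89), Bnip3 0.26 (interval -0.04 to 0.57) and Gadd45a 0.16 (interval -0.45 to 0.77). In liver Fbxo32 at 35wk read -1.17, -1.38, -1.02 and -0.93 in Wt and -1.86, -1.39, -1.39 and -1.48 in Akt1+/- mice, which did not overlap but did not pass (-0.40, SE 0.14, adjusted p = 0.137). With scaling to the median it passed (-0.58, adjusted p = 0.0401), as did Fbxo32 (-0.39, adjusted p = 0.0322) and Sesn1 (-0.30, adjusted p = 0.0218) in liver over both ages. Sesn1 at 8wk did not overlap in liver (-0.30, SE 0.11, adjusted p = 0.157) or in fat (-0.50, SE 0.26, adjusted p = 0.262), lower in Akt1+/- mice in both. In fat all 3 Sesn1 probes agreed on that separation, while in liver only A_51_P233954 separated the genotypes. The slide of 8wk fat that held both genotypes gave -0.57 for Sesn1, against 1 Wt array. No member's genotype difference changed between tissues past the threshold, against 0.896% of genes for muscle and liver, 4.27% for fat and liver and 0.73% for muscle and fat, and Bnip3 came nearest with 0.60 for muscle minus liver (SE 0.16, adjusted p = 0.0567). That value passed with the replicate block (0.60, adjusted p = 0.0396), with scaling to the median (0.65, 0.0493) and with probes above background on all arrays (0.60, 0.0444), and fat minus liver passed with scaling to the median (0.62, 0.0188).

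**Figure D2:**
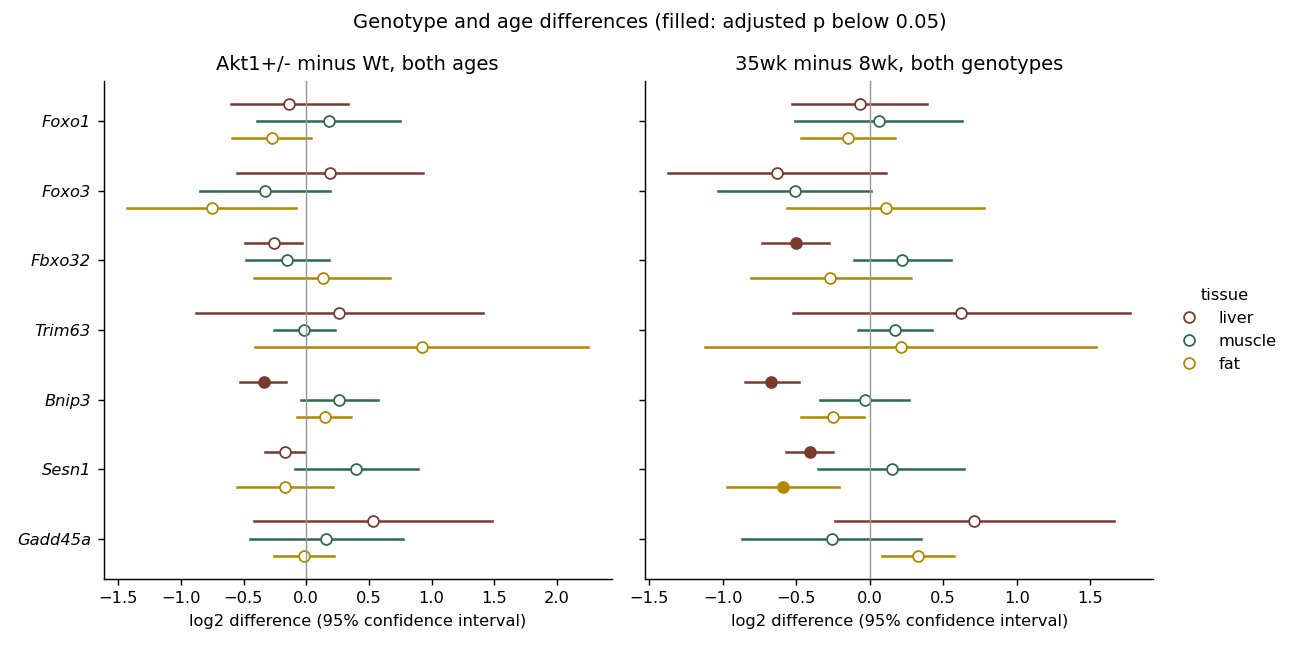
Log2 differences of the 7 genes for genotype (left, Akt1+/- minus Wt over both ages) and age (right, 35wk minus 8wk over both genotypes) in each tissue, with 95% confidence intervals from limma; filled points have an adjusted p below 0.05. Bnip3 in liver is the only filled point for genotype, and Bnip3, Fbxo32 and Sesn1 in liver and Sesn1 in fat are filled for age, all below 0.

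The second question is how the members changed between 8wk and 35wk. In liver Bnip3, Fbxo32 and Sesn1 fell with age in both genotypes, 3 of 7 members against 15.1% of all genes that fell and 35.1% called in either direction. In fat Sesn1 fell, 1 of 7 against 9.32% that fell and 19.3% called in either direction. In muscle no member was called, against 31.4%.

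In liver Bnip3 fell by 0.67 log2 over both genotypes (SE 0.09, 1.59-fold, adjusted p = 0.000144), and every 35wk array lay below every 8wk array of its genotype. Fbxo32 read -0.79, -0.59 and -0.92 in Wt and -0.72, -1.05 and -0.88 in Akt1+/- liver at 8wk, above all the 35wk values of the same genotype given above. It fell by 0.50 (SE 0.10, 1.42-fold, adjusted p = 0.00302). Sesn1 read 2.44, 2.6 and 2.35 in Wt 8wk liver against 1.82, 1.85, 1.91 and 2.11 at 35wk, and 2.28, 2.07 and 2.13 against 1.91, 1.91, 1.71 and 1.99 in Akt1+/- liver. Sesn1 fell by 0.41 (SE 0.07, 1.33-fold, adjusted p = 0.00141), without overlap in either genotype, and its other 2 probes fell by 0.79 (adjusted p = 4.47e-05) and 0.39 (adjusted p = 0.039). These 3 calls held without any single liver array. In the fit over all 42 arrays, which pools the spread of the tissues, Sesn1 in liver gave an adjusted p of 0.076. The summed lymphocyte markers in liver were 1.4 to 2.29 at 8wk and 1.83 to 2.89 at 35wk and the macrophage markers 8.42 to 16.4 and 11 to 19.9 (3 of 3 each), and their part in the fall was not tested.

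In fat Sesn1 read 4.66, 4.76 and 4.82 in Wt at 8wk and 3.34, 3.49, 3.94 and 4.53 at 35wk. In Akt1+/- fat it read 4.41, 4.36 and 3.97 at 8wk and 4.32, 3.72, 3.86 and 4.04 at 35wk. With this probe the ages did not overlap in Wt fat and did in Akt1+/- fat, whereas A_52_P53596 separated them in Akt1+/- fat too. Sesn1 fell by 0.59 over both genotypes (SE 0.17, 1.5-fold, adjusted p = 0.0337; 0.0553 without the filter and 0.0528 by the methods' two-way test), and its other probes fell by 1.06 (adjusted p = 0.0017) and 0.78 (adjusted p = 0.00679). The genotype by age term for Sesn1 in fat, 0.66 (SE 0.35), did not pass (adjusted p = 0.313). The age call with A_51_P233954 was lost when any of 9 of the 14 fat arrays was left out (adjusted p 0.00552 to 0.0814) and held without Akt1+/- 8wk replicate 3, Wt 35wk replicate 3 or 4, or Akt1+/- 35wk replicate 1 or 4. The summed macrophage markers in fat were 20.3 to 33 at 8wk and 19 to 24.6 at 35wk (3 of 3), and their part in the Sesn1 value was not tested. Gadd45a in fat (0.33, 95% interval 0.08 to 0.57, adjusted p = 0.0594) and Bnip3 in fat (-0.25, interval -0.47 to -0.04, adjusted p = 0.0935) did not pass, although Gadd45a did with the slide block (0.0425) and Bnip3 with normexp (-0.40, 0.0108).

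**Figure D3:**
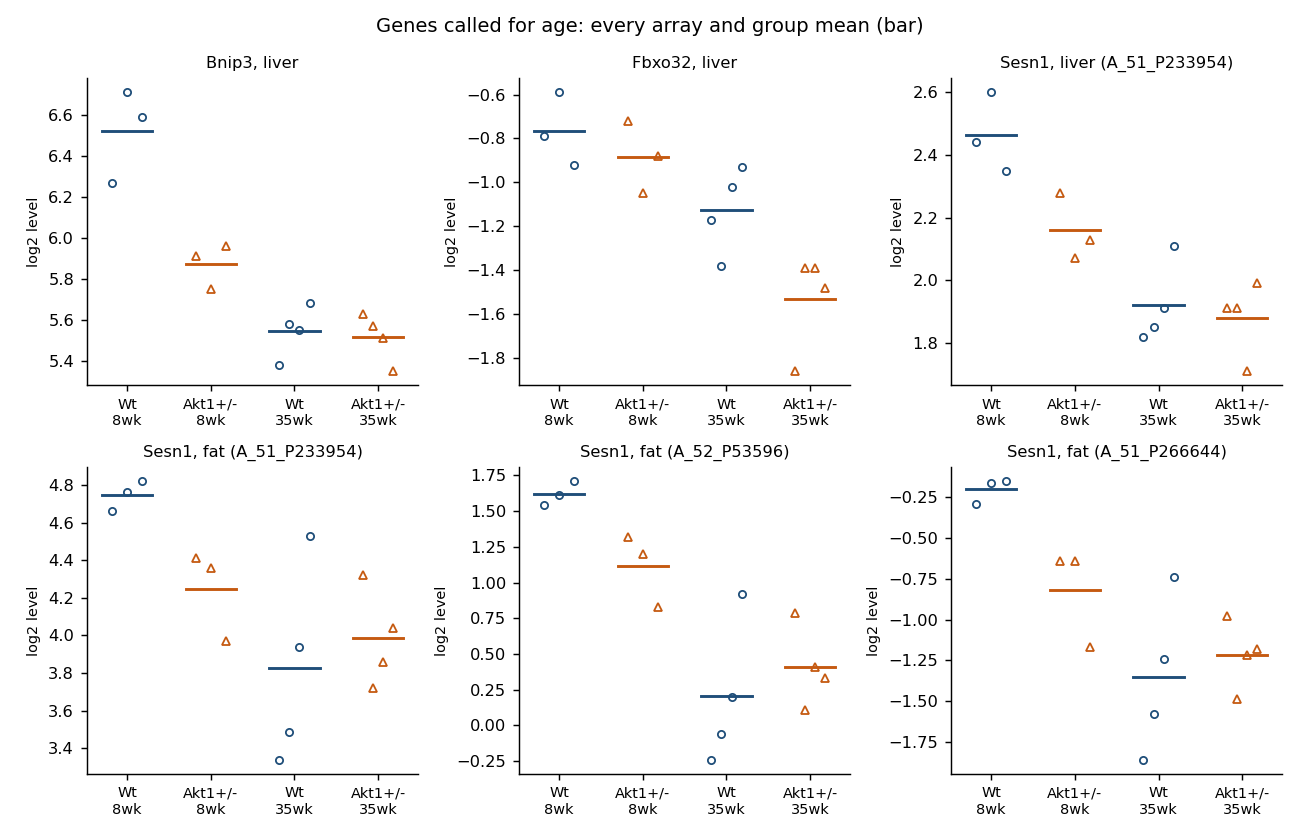
Log2 level on every liver array for Bnip3, Fbxo32 and Sesn1 and on every fat array for the 3 Sesn1 probes, by genotype and age; circles are Wt, triangles Akt1+/- and bars group means. In liver the 35wk points lie below the 8wk points of the same genotype for the 3 genes shown, and in fat the 3 Sesn1 probes give the same order of the group means at 8wk.

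In muscle the 2 probes of Trim63 parted with age. The RefSeq probe read 8.73, 8.73 and 8.59 in Wt at 8wk and 9.11, 8.69, 9.04 and 9.12 at 35wk, and did not pass (0.17, SE 0.11, adjusted p = 0.276). The cDNA probe read 4.94, 5.2 and 4.84 in Wt at 8wk and 4.15, 4.33, 4.64 and 4.56 at 35wk, without overlap, and fell by 0.41 over both genotypes (SE 0.12, adjusted p = 0.0229, with each probe tested apart). Which transcript the cDNA probe reads was not tested. Foxo3 in muscle gave -0.51 with A_52_P373852 (SE 0.24, adjusted p = 0.121; -0.67 and 0.0215 with the replicate block, -0.64 and 0.0151 with the mean of both probes) and fell by 0.76 with A_51_P145507 (SE 0.26, adjusted p = 0.0423, each probe tested apart). With the replicate block the age difference rests only on the replicate numbers present at both ages. Fbxo32 in muscle gave 0.22 (95% interval -0.11 to 0.55, limma adjusted p = 0.291). Leaving out Akt1+/- 35wk replicate 3, which was low in Fbxo32 (7.32), Trim63 (8.35) and Gadd45a (2.39), brought 2 members past the threshold for age in muscle, Fbxo32 (0.32, adjusted p = 0.0447) and Trim63 (0.25, adjusted p = 0.0298). Markers of slow muscle fibres moved with age in these samples, with a summed level of 558 to 1255 at 8wk and 1344 to 1703 at 35wk (5 of 5 markers), and their part in the muscle values was not tested.

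**Figure D4:**
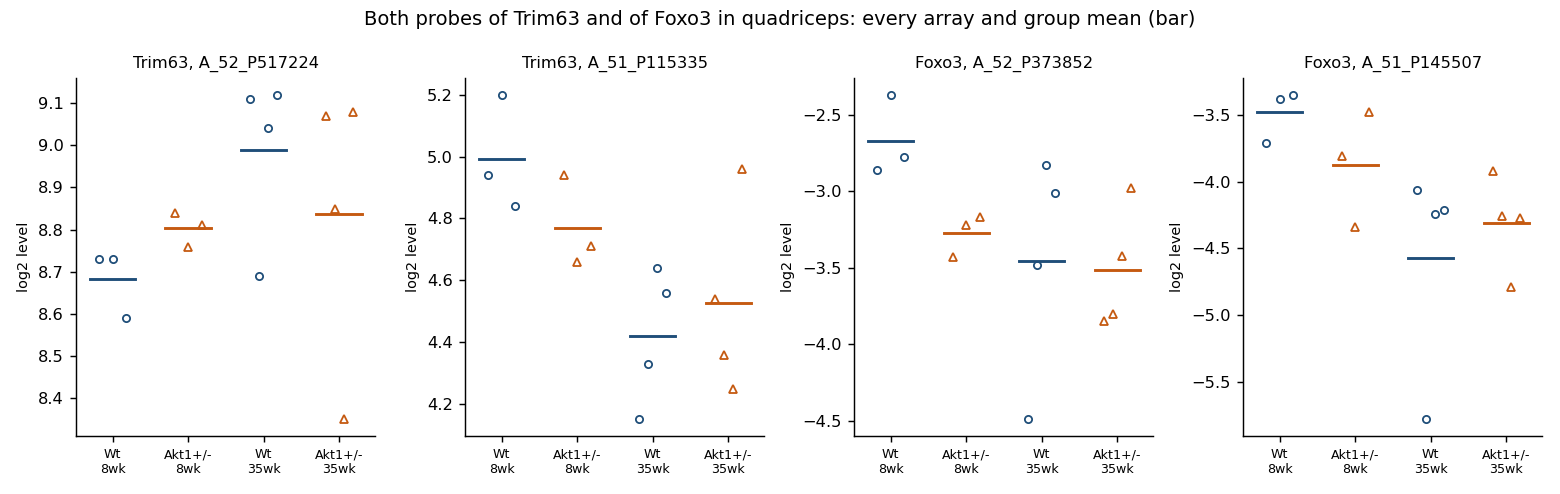
Log2 level in quadriceps of the 2 Trim63 probes and the 2 Foxo3 probes on every array, by genotype and age; circles are Wt, triangles Akt1+/- and bars group means. The cDNA probe of Trim63 (A_51_P115335) is lower at 35wk in Wt muscle, at 4.15 to 4.64 against 4.84 to 5.2, and the RefSeq probe (A_52_P517224) is not.

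The age difference itself was set side by side between tissues. For Bnip3 it was -0.67 in liver and -0.03 in muscle, and the difference of 0.64 passed (SE 0.16, limma adjusted p = 0.0052), 1 of 7 members against 18.8% of genes. For Sesn1 it was 0.15 in muscle and -0.59 in fat, and that difference of 0.74 passed (SE 0.25, adjusted p = 0.0429), 1 of 7 against 16.4%. The muscle value of Sesn1 was -0.26 with A_52_P53596 and -0.20 with A_51_P266644, and none of the 3 probes passed for age in muscle. Between fat and liver no member's age change passed, against 16.2% of genes, and Bnip3 came nearest (0.42, adjusted p = 0.0734), passing with scaling to the median (0.60, adjusted p = 0.00829). The Sesn1 call was lost with scaling to the median (0.70, adjusted p = 0.055), without the filter (0.0588), with the mean of probes (0.71, 0.0738) and with slide as a random block (0.73, 0.092). The Bnip3 call held without any single array, at 0.56 to 0.77, whereas the Sesn1 call was lost in 17 of 42 such fits (0.61 to 0.87, adjusted p 0.0122 to 0.101). Those 17 left out muscle Wt 8wk replicate 1 or 3, Akt1+/- 8wk replicate 1 or 2, Wt 35wk replicate 1, 3 or 4, or Akt1+/- 35wk replicate 1 or 4, or fat Wt 8wk replicate 2 or 3, Akt1+/- 8wk replicate 1 or 2, Wt 35wk replicate 1 or 2, or Akt1+/- 35wk replicate 2 or 3.

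Arrays of 1 group varied widely for some members. The residual SD of Gadd45a was 0.91 log2 in liver (percentile 98.4 of all genes, whose median was 0.22) and 0.21 in fat. In liver Gadd45a ran from -2.02 to -0.41 in the Wt 8wk group and from -1.96 to 0.53 in the Akt1+/- 8wk group. At 35wk it read -1.06, -1.76, 0.01 and -0.05 in Wt and -0.10, -0.36, 1.14 and 0.01 in Akt1+/- liver, higher on the Akt1+/- array of each same-numbered pair, and did not pass (0.88, SE 0.57, adjusted p = 0.483, or 0.213 with the replicate block). Bnip3 and Sesn1 in liver were tight, at 0.15 and 0.12. In muscle Foxo1 and Sesn1 had residual SDs of 0.53 and 0.46 against a median of 0.19. The same muscle arrays were high or low in both genes: Akt1+/- 8wk replicate 3 read 4.54 for Foxo1 and 6.61 for Sesn1, above the rest of its group, Wt 35wk replicate 2 read 3.25 and 5.2, and Akt1+/- 35wk replicate 2 read 3.24 and 5.42, both below the rest of their groups. Wt 35wk replicate 4 and Akt1+/- 35wk replicate 4 were the highest of their groups in both, at 4.61 and 6.17 and at 4.62 and 6.66.

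**Figure D5:**
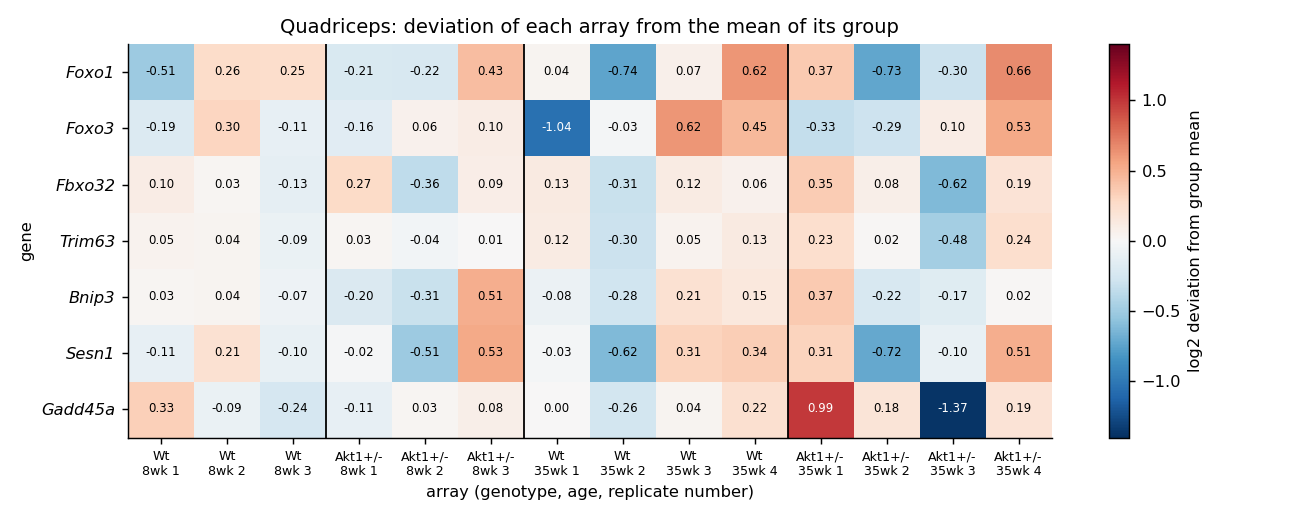
Deviation in log2 of each quadriceps array (columns) from the mean of its own group for the 7 genes (rows), with red above and blue below the group mean. Foxo1 and Sesn1 share their high and low arrays at 35wk, and Akt1+/- 35wk replicate 3 is low in Fbxo32, Trim63 and Gadd45a.

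Among 107 other genes of the pathway, in 7 lists (the kinases that act on FoxO, its partners, Foxo4 and Foxo6, autophagy genes, other muscle ligases, and metabolic and stress targets), 6 of 104 tested were called for genotype in liver, 1 higher and 5 lower, which is 5.77% beside 6.26% of all genes. Akt1 was among the lower ones. Of the metabolic targets Pnpla2, the lipase that starts triglyceride breakdown, rose by 0.47 in Akt1+/- liver (SE 0.11, adjusted p = 0.0304), while the coactivator gene Cited2 fell by 0.58 (adjusted p = 0.0203) and Apoc3, an apolipoprotein of triglyceride-rich particles, fell by 0.31 (adjusted p = 0.028). Sod2, the mitochondrial superoxide dismutase, fell by 0.33 (adjusted p = 0.0272). Txnip, which binds thioredoxin and limits glucose uptake, was lower in Akt1+/- liver at 35wk (-0.73, SE 0.17, adjusted p = 0.0367), and its genotype by age term of -1.33 passed (SE 0.26, adjusted p = 0.0475). In muscle 0 of 101 pathway genes were called for genotype by limma. In fat 2 of 101 were called (1.98% beside 0.822% of all genes), both lower: Akt1, and Trim55, which encodes MuRF2, a relative of Trim63 (-1.14, SE 0.21, adjusted p = 0.0366). At 35wk Trim55 and Trim54, the third MuRF gene, were lower in Akt1+/- fat (-1.74 and -0.98), where genotype cannot be told apart from slide and scan day. The skeletal muscle markers there, mainly Acta1, summed to 26.6 to 56.9 in Wt and 21.5 to 86.6 in Akt1+/- samples. The part of muscle tissue in these values was not tested.

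Of 21 autophagy genes, the group Bnip3 belongs to, 5 were called for age in liver, 5 in muscle and 7 in fat, beside 35.1%, 31.4% and 19.3% of all genes. By direction, 3512 of 17561 genes rose and 2646 fell in liver. In muscle 2879 of 17138 rose and 2499 fell, and in fat 1826 of 18366 rose and 1711 fell. In liver 0 rose and 5 fell, with a list median of 0.02 against 0.02 over all genes; Bnip3l, the closest relative of Bnip3, fell by 0.34 (adjusted p = 0.0138) and Gabarapl1, an autophagosome protein and known FoxO target, fell by 0.36 (adjusted p = 0.0324). In muscle 5 rose and 0 fell (median -0.02 against 0.01), and Gabarapl1 rose by 0.72 (SE 0.16, adjusted p = 0.00456). In fat 5 rose and 2 fell (median 0.13 against 0.01), with Pink1 up by 0.40 and Bnip3l down by 0.44. The age change of Gabarapl1 differed between muscle and liver by 1.08 (SE 0.18, adjusted p = 8.7e-05). Among the other FoxO factors Foxo4 rose with age in liver (1.38, SE 0.22, adjusted p = 0.000528). Of the sestrins, Sesn2 fell with age in liver as Sesn1 did (-0.65, SE 0.15, adjusted p = 0.0046). Among the muscle ligases Fbxo40 rose with age in muscle by 0.60 (SE 0.11, adjusted p = 0.00209) and Trim54 by 0.39 (SE 0.06, adjusted p = 0.000514).

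The genes most like each member over the 12 group means were found by Pearson correlation, which here mostly follows the tissues and carries no p. Fbxo32 was closest to Asb10, Neurl1a and AK033632 (0.998 each) and Trim63 to Asb11 (0.999), Art1 (0.999) and Plec (0.998). Fbxo32 and Trim63 reached 0.996 with each other. Gadd45a was closest to Ldb3 (0.996), Tmem117 (0.995) and Actl7b (0.995), and Sesn1 to Slc35f1 (0.995), Galnt17 (0.992) and Mlxip (0.992). The FoxO genes had weaker neighbours, Csrnp2 (0.982), Mepce (0.974) and Fam53c (0.966) for Foxo3 and BG294923 (0.963), Lrrc24 (0.953) and Tcta (0.950) for Foxo1. Bnip3 was closest to Hnrnph3 (0.951), Abca8a (0.950) and Cabp1 (0.946).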

How the data were processed

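RNA of liver, quadriceps and visceral fat was hybridised to 42 one-colour Agilent arrays. The deposited intensity values were processed signals of Agilent Feature Extraction (version 9.1 in the submitters' notes); the authors also deposited a table of log2 values, which equalled the log2 signal scaled to the 75th percentile (Pearson r of 1.0). Here log2 signals minus each array's 75th percentile over 41174 non-control probes were used. Probes were named through RefSeq accessions (24375), current symbols (6301), older symbols (2426) or the file (8072). A probe had to be well above background on 3 arrays of a group, and the brightest such probe stood for its gene. That filter was applied within each tissue, or over all tissues for comparisons between them, so Trim63 and Foxo3 use a different probe in liver. limma 3.58.1 (R 4.3.3) fitted the 4 groups of a tissue, or 12 groups of all 42 arrays, with Benjamini-Hochberg adjustment over all genes tested and a threshold of 0.05. Simulated data held 200 genes changed by 1 log2, with independent noise. Of these 87% were recovered in liver, 89.5% in muscle, 83.5% in fat and 80% between tissues. Smaller changes, the size of most genotype and age differences given here, were not simulated. The number of arrays limits the precision. Members, lists and tests were chosen with earlier results of these data known. Genes named are the members, Akt1, from each list the largest called changes (at most 2 in each direction), and 3 most similar genes per member. 1 gene that this rule names is not reported here. Same-numbered arrays of the 2 genotypes deviated together at 35wk (correlations 0.105 to 0.526) and not at 8wk (-0.195 to 0.0731). The blocked fit nonetheless gave each replicate number of a tissue 1 effect shared by both ages. Its 8wk values and its values over both ages therefore assume a pairing not seen at 8wk. Its age differences rest on the replicate numbers present at both ages. Its levels between tissues stand for replicate 1 alone and are not read. At 35wk the blocked fit called no member and raised the muscle count from 17 to 122 genes. Alternatives covered background correction, scaling, filter, probe summary, replicate and slide blocks, the methods' two-way test and leaving out each array. Promoter sequences came from RefSeq (GRCm38.p6), and probe positions are those of the array files (mm8).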

Additional observations from a re-analysis of the deposited data

Results flagged for a closer look

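Each member was checked within each 35wk group of a tissue and genotype, which gave 42 sets of 4 values. In 4 of these sets 1 array lay far from the other 3, and chance flags about 1 set in 20. Sets of different members in a group share the same arrays, so the sets are not independent. Foxo1 in Wt 35wk liver was 1.85 in replicate 1 against 3.15 to 3.35 in the others, and its second probe was low on the same array at 1.68. Trim63 on that array was high, at -2.7 against -4.97 to -5.26. Fbxo32 in Wt 35wk muscle was 7.85 in replicate 2 against 8.23 to 8.29. Trim63 in Wt 35wk fat was -5.95 in replicate 2 against -4.38 to -4.19.

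The age change differed between tissues for Bnip3 (muscle minus liver, 0.64, limma adjusted p = 0.0052) and for Sesn1 (muscle minus fat, 0.74, limma adjusted p = 0.0429), the latter lost under several alternatives (adjusted p up to 0.092, with slide as a random block; 0.184 with probe A_51_P266644).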

How the results depend on the processing

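The falls with age of Bnip3, Fbxo32 and Sesn1 in liver kept their direction under every alternative run and their calls under all but 1, the fit over 42 arrays for Sesn1 (adjusted p = 0.076). Counts of members called moved as follows, and the cause was not tested. The count over all genes under the same setting stands in brackets. For genotype in liver the main count of 1 became 3 with scaling to the median (3112 of 17561). It became 0 with normexp and quantile (997 of 17561), without the filter on dim probes (362 of 27575), with the replicate block (955 of 17561) and with slide as a random block (245 of 17561). At 8wk in liver the count became 0 under the last 3 of these (79 of 27575, then 247 and 80 of 17561). At 35wk it became 1 with median scaling (1177 of 17561). For genotype by age it became 1 under the methods' unadjusted two-way test (805 of 17561). For age in muscle the count of 0 became 1 with the mean of all probes (5153 of 17138) or the replicate block (5855 of 17138). It became 2 with probes kept apart (7901 of 25488 probes). For age in fat the count of 1 became 2 with normexp (3964 of 18366) or the slide block (4198 of 18366). It became 0 without the filter (2816 of 27582) or with the methods' two-way test, adjusted (3448 of 18366) or not (3513 of 18366). Between fat and liver 5 became 3 with probes above background on all arrays (10933 of 13223) or with the mean of probes (15803 of 19861). Between muscle and fat 5 became 3 with the former (11405 of 13223). For age by tissue, median scaling gave 3 (muscle minus liver), 1 (fat minus liver) and 0 (muscle minus fat); background on all arrays gave 2 for muscle minus liver; no filter, mean of probes and the slide block gave 0 for muscle minus fat. For genotype by tissue, median scaling gave 1 for muscle minus liver and 1 for fat minus liver, and background on all arrays and the replicate block gave 1 for muscle minus liver.

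Akt1 in muscle passed with the replicate block (-0.58, adjusted p = 0.0222), the slide block (-0.57, 0.0394) and the fit over 42 arrays (-0.58, 0.000722). Signs turned for Trim63 with age in muscle (-0.41), and fat minus liver for Trim63 (-0.89) and Foxo3 (-0.39), each with the other probe. Values that did not pass turned too. Sesn1 with age in muscle went from 0.15 to -0.26 and -0.20 with its other probes and -0.10 with the mean of probes. Foxo3 for genotype at 35wk went from 0.69 to -0.84 in liver (fit over 42 arrays) and from -0.45 to 0.66 in fat (other probe). For Trim63 with age in liver the fit over 42 arrays gave -1.06, but from a probe well above background on 0 of 14 liver arrays, so this value says nothing of a direction. Leaving out each array gave 0 to 1 members for genotype in liver and at 8wk, 3 to 3 for age in liver, 0 to 2 for age in muscle and 0 to 3 in fat. Between tissues it gave 4 to 6 for muscle minus fat; for age by tissue 1 to 2 (muscle minus liver), 0 to 1 (fat minus liver) and 0 to 2 (muscle minus fat); for genotype by tissue 0 to 1 (muscle minus liver and fat minus liver).

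Over all genes, the count for genotype in liver was 1100 and 245 to 3112 under the alternatives other than leaving out an array, at 8wk 372 and 79 to 1101, at 35wk 623 and 197 to 1177, and for genotype by age 98 and 20 to 376. In muscle genotype gave 0 and 0 to 284, 8wk 0 and 0 to 294, 35wk 17 and 0 to 122, and genotype by age 0 and 0 to 21. In fat genotype gave 151 and 44 to 566, 8wk 338 and 7 to 1491, genotype by age 302 and 128 to 899, and age 3537 and 2816 to 5515. Genotype by tissue gave 178 and 9 to 473 (muscle minus liver), 849 and 424 to 1655 (fat minus liver) and 145 and 20 to 424 (muscle minus fat); age by tissue gave 3223 and 2191 to 5429 (fat minus liver) and 3265 and 2110 to 4842 (muscle minus fat). Leaving out 1 array gave 270 to 1273 for genotype in liver, 23 (without Wt 8wk replicate 2) to 527 at 8wk, 205 to 744 at 35wk and 27 to 129 for genotype by age; 0 to 33, 0 to 251, 0 to 83 and 0 to 32 for the same in muscle; and 27 to 489, 3 to 1001, 167 to 391 and 82 to 894 in fat, where age gave 2474 to 3965. For genotype by tissue it gave 30 to 325 (muscle minus liver), 491 to 1070 (fat minus liver) and 22 to 362 (muscle minus fat). Median scaling moved the median of all genes in liver to -0.11 for genotype and -0.18 for age, and to -0.26 for fat minus liver and 0.21 for muscle minus fat, from 0.02, 0.02, -0.01 and -0.01. Limits are the 3 or 4 arrays per group, the overlap of age with scan day, and the dim probes of Foxo3 and, outside muscle, Trim63.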
